A study of Rattus norvegicus with 6 samples.

Results

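The miR-466b, miR-466c and miR-466d probes are 6 of the 761 rat miRNA probes on the array, and they were taken as every probe whose name carries one of these 3 stems, on any arm of the hairpin. The members are rno-miR-466b-3p, rno-miR-466b-2-3p, rno-miR-466c-3p, rno-miR-466b-5p, rno-miR-466c-5p and rno-miR-466d, written from here on without the species prefix. The family was picked because its probes are bright and have a higher signal on the DSS arrays, so the comparison of DSS with control hearts is given as a description of these values. Counts of members called by a test over all probes are printed only beside the share of all probes called, and nothing is drawn from them. All rats were adult Sprague Dawley animals, 3 of them untreated controls (numbered 9, 10 and 11) and 3 with chronic colitis (numbered 13, 14 and 16), and the heart RNA of each was hybridized to an array of its own. Colitis was induced with dextran sodium sulfate (DSS), a sulfated polysaccharide that injures the colonic epithelium. It was given at 3% in the drinking water in 4 cycles of 5 days, each followed by 9 days of plain water, over 8 weeks. The model is a chemical injury of the colon, and the RNA is from whole heart tissue.

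MicroRNAs are short RNAs cut from hairpin precursors. Either strand of the hairpin stem, named the 5p or the 3p arm, can be loaded into an Argonaute protein, and bases 2 to 8 of the loaded strand, the seed, pair with target mRNAs. The miR-466 family is a rodent group whose copies arose in a repetitive stretch within an intron of Sfmbt2, a Polycomb-group gene. The group is described in the mouse as an imprinted cluster active in the placenta, together with miR-297, miR-467 and miR-669. Its hairpins carry a GU repeat in the 5p arm that pairs with an AC repeat in the 3p arm.

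The array targets of the 6 members are printed because their likeness limits how far the probes can be told apart. They are given 5′ to 3′ with the seed in capitals, the 3p arms first.
miR-466b-3p: aUACAUACacacacacauacac
miR-466b-2-3p: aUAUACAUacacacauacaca
miR-466c-3p: uAUACAUGcacacauacacac
miR-466b-5p: uAUGUGUGuguguauguccaug
miR-466c-5p: uGUGAUGUguguauguacaug
miR-466d: aUGUGUGUguauguccuuuugu
The 6 members have 6 different seeds, so none form a seed group, and no other probe on the array shares bases 2 to 8 with a member. The 3p arms differ from each other by an edit distance of 3 to 5, and all 3 hold the run CACACAUACAC, which is in 0 of the other 755 targets. The name miR-466d gives no arm. Its target lay nearest to the 5p arms by edit distance and it was placed with them. The 5p arms differ from each other by 4 to 8 edits, and all 3 hold the run UGUGUGUAUGU, also in 0 of the other 755 targets. Searched on the opposite strand, CACACAUACAC was found in 0 members and UGUGUGUAUGU in 2, the 3p arms of miR-466b. A 3p and a 5p member lie 12 to 16 edits apart, but a 3p member lies only 3 to 9 edits from the reverse complement of a 5p member. GC content was 28.6% for miR-466b-2-3p and 40.9% for miR-466b-5p, the lowest and the highest of the 6, against a median of 47.8% over the 282 probes tested. Whether a probe also binds the RNA of another member was not tested.

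RefSeq (GRCr8) places the 4 hairpins of the family on the minus strand of chromosome 17, all inside the span of Sfmbt2 (chr17:72844037-73038599), which lies on the same strand. The order along the chromosome is Mir466d (chr17:72913004-72913096), Mir466c (chr17:72927601-72927679), Mir466b-2 (chr17:72942463-72942544) and Mir466b-1 (chr17:72945493-72945578), over 32575 bases in all. Only gene spans were used, so exons and introns of Sfmbt2 were not assigned. The mature miR-466b-5p is the same in Mir466b-1 (chr17:72945547-72945568) and in Mir466b-2 (chr17:72942513-72942534), and its probe reads both. The 3p arms of these hairpins have a probe each, miR-466b-3p at chr17:72945512-72945533 and miR-466b-2-3p at chr17:72942475-72942495. The latter probe is also annotated in the scanner files with miR-466b-4-3p. From the Mir466c hairpin, miR-466c-3p (chr17:72927610-72927630) and miR-466c-5p (chr17:72927649-72927669) were both measured. For 5 of the 6 members the array target is identical to the RefSeq mature sequence. For miR-466d (chr17:72913060-72913081) they differ by U15C, counted from 1 at the 5′ end, with the RefSeq base first and the base of the array target last. The RefSeq hairpin of Mir466d is shown with its annotated mature strand in capitals, to set the GU-rich strand beside the AC-rich stretch of the opposite side.
Mir466d: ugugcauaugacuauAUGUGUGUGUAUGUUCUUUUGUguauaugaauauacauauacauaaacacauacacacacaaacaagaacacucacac

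Each probe had 4 spots per array. Between 223 and 365 of the 761 miRNAs were detected per array, and 282 were detected on at least 3 arrays and tested. All 6 members were detected on all 6 arrays with 4 of 4 spots. Their spots, 144 in all, read between 124 and 12866 scanner units before background correction, below the brightest spot of the arrays at 59496. The CV of the 4 spots had a median of 9.98% and reached at most 22.0%, for miR-466c-3p on DSS replicate 16. Of the control probes detected on every array, 17 of 18 spike-in probes and 5 of 6 5S rRNA probes were lower on the DSS arrays before normalization, by 0.78 and 0.42 on average on the log2 scale. Heart muscle miRNAs were read as a check of the tissue. The probes for miR-1-3p, miR-133a-3p, miR-133b-3p and miR-499-5p were detected on all 6 arrays, but miR-208a-3p on only 1 and miR-208b-3p on 0.

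The 3p arms, which come from the AC-rich strand, had a higher signal on every DSS array than on any control array. In whole tissue, a change in the number of cells of a type and one in RNA per cell cannot be told apart, and with 3 arrays a group the precision is limited. Values are log2 signals after background correction and LOWESS normalization between arrays. No other assay of these miRNAs was read here, so the differences are of array signal only. For miR-466b-3p they were 11.31, 11.49 and 11.85 on control replicates 9, 10 and 11, and 12.45, 14.02 and 13.02 on DSS replicates 13, 14 and 16. The mean difference, DSS minus control, was 1.61 on the log2 scale (standard error 0.40), a fold of 3.06. DSS replicate 14 stood highest and DSS replicate 13 lay only 0.61 above the highest control. For miR-466c-3p, the control hearts read 11.12, 11.27 and 11.80 and the DSS hearts 12.30, 13.73 and 12.80. This gave 11.39 ± 0.36 in control and 12.94 ± 0.73 in DSS hearts (SD, n = 3 each), a fold of 2.92. For miR-466b-2-3p, the control hearts read 10.41, 10.60 and 11.23 and the DSS hearts 11.76, 13.05 and 12.01. Its means were 10.75 ± 0.43 and 12.27 ± 0.68 (SD, n = 3 each), a fold of 2.88. In all 3 probes the highest control was replicate 11, and after LOWESS the spread among the DSS arrays was wider than among the controls. Without normalization the controls had the wider spread in all 3. For miR-466b-3p the SD was then 0.49 in control and 0.36 in DSS hearts.

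The 5p arms, from the GU-rich strand, also lay higher on all DSS arrays. For miR-466b-5p, the control values were 9.25, 9.54 and 9.48 and the DSS values 10.26, 11.43 and 10.61. The means were 9.42 ± 0.15 in control and 10.77 ± 0.60 in DSS hearts (SD, n = 3 each), a fold of 2.55. Its gap between the lowest DSS and the highest control array, 0.72, was the widest of the 6 probes. For miR-466c-5p, the control hearts read 7.81, 8.34 and 7.94 and the DSS hearts 8.99, 9.77 and 9.37, with a mean difference of 1.35 (standard error 0.26). For miR-466d, the values were 8.12, 8.82 and 8.39 in control and 9.47, 10.39 and 9.74 in DSS hearts, with a mean difference of 1.43 (standard error 0.30). Here the highest control was replicate 10 for all 3 probes, where for the 3p arms it was replicate 11. Without normalization it was replicate 11 for all 6.

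**Figure D1:**
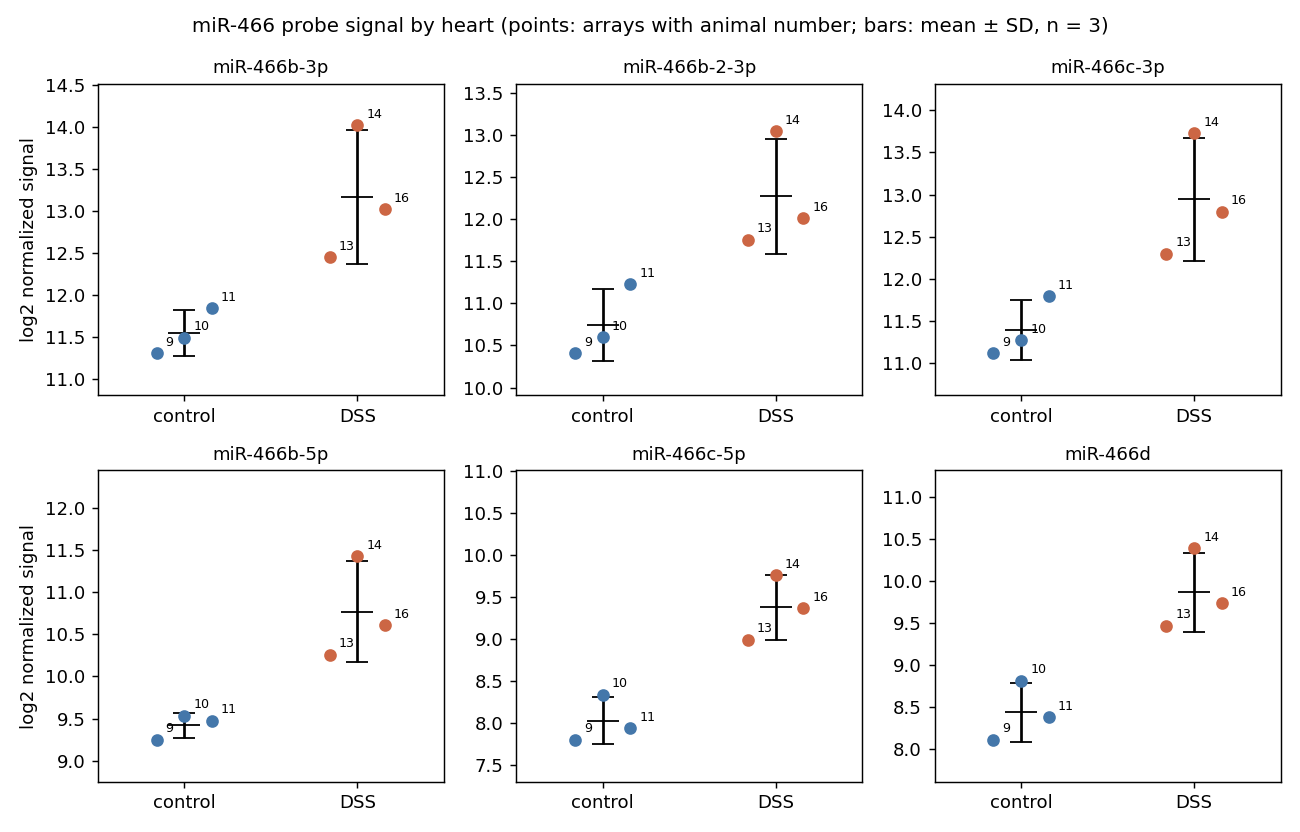
Log2 normalized signal of the 6 miR-466 probes, 1 panel per probe, in control (blue) and DSS (orange) hearts; points are arrays labelled with the animal number, and the bars give the mean ± SD (n = 3). The 3 DSS arrays lie above the 3 control arrays in every panel, with DSS replicate 14 the highest and DSS replicate 13 the lowest of its group.

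In the brightness of the spots before any correction, the mean of each member was higher on every DSS array than on any control array, with a margin that was narrow for some. For miR-466b-3p, the 4 spots averaged 2520, 3574 and 4968 scanner units in the control hearts and 8736, 11309 and 6856 in the DSS hearts. As a ratio, the margin was narrowest for miR-466b-2-3p, with 1295, 1778 and 3152 in the control hearts and 5458, 5940 and 3498 in the DSS hearts. Its spots on control replicate 11, from 2719 to 3549, overlapped those on DSS replicate 16, from 3082 to 3979. The spots of miR-466c-3p overlapped on the same arrays, reaching 5022 on control replicate 11 and starting at 4925 on DSS replicate 16. For miR-466c-5p, they averaged 146, 298 and 268 in the control hearts and 794, 822 and 623 in the DSS hearts. The member value closest to the detection limit was miR-466c-5p on control replicate 10, where its signal stood 3.46 times as far above the background as that limit. The authors' processed values, on a linear scale, also kept the DSS arrays above the control arrays for all 6 members, as they did for 31.9% of the tested probes. For miR-466b-3p they were 2381, 3259 and 3964 in control and 7477, 14474 and 8645 in DSS hearts. For miR-466c-5p they were 196, 243 and 199 in control and 421, 634 and 581 in DSS hearts. The processed values exceeded 500, the limit the study uses for high signal, on all 6 arrays for both miR-466b 3p probes, miR-466c-3p and miR-466b-5p. They did so on 3 arrays for miR-466d and on 2 for miR-466c-5p. The limit is set here against single arrays, and the DSS means of these probes, 778 and 545, were above it.

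**Figure D2:**
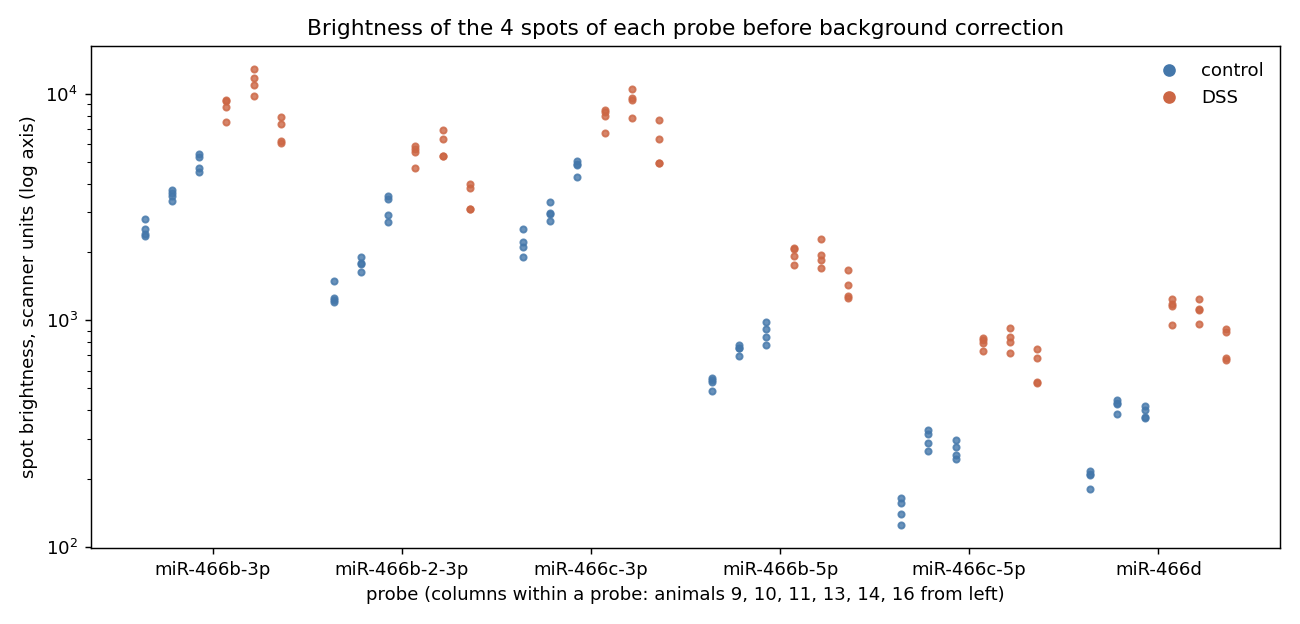
Brightness of each of the 4 spots of the 6 miR-466 probes in scanner units before background correction, on a log axis, with 1 column of points per array in the order of animals 9, 10, 11 (control, blue) and 13, 14, 16 (DSS, orange). DSS replicate 16 is the dimmest DSS array for every probe before normalization, and its spots overlap those of control replicate 11 for miR-466b-2-3p (3082 to 3979 against 2719 to 3549) and miR-466c-3p.

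The order of the DSS hearts depended on the normalization. After LOWESS, all 6 members were highest in DSS replicate 14 and lowest in DSS replicate 13, and the same held in the authors' processed values. Without normalization, DSS replicate 16 was lowest for all 6, and the 5p arms were highest in DSS replicate 13 in place of 14. After LOWESS, in DSS replicate 14 all 6 lay above their own group means, by 0.39 to 0.86 on the log2 scale, and in DSS replicate 13 all 6 lay below them, by 0.38 to 0.71. In control replicate 9 all 6 lay below their means, by 0.17 to 0.34. In control replicates 10 and 11 the members were divided, with 3 and 4 of 6 above their means. Without normalization, the family mean of DSS replicate 13, at 11.54, lay above that of its group, at 11.41. Members share sequence and a genomic cluster, so these are not independent readings.

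Among all tested probes the members stood in the upper part of the differences. The 6 differences ran from 1.35 to 1.61 on the log2 scale with a median of 1.48, where the median of the 282 tested probes was -0.06. There were 30 other probes above the lowest member and 22 above the highest, so that the family was not at the top of the list. limma called all 6 members higher in DSS hearts at an adjusted p under 0.05, where 20.9% of all tested probes were called higher and 49.3% in either direction. All 6 also had every DSS array above every control array, which was the case for 31.6% of tested probes, and 66.3% had no overlap in either direction. Since the family was chosen on this contrast, these counts are no support for it. The calls of limma depended on which array was left out. All 6 were still called without control replicate 10, DSS replicate 13 or DSS replicate 14. At these settings 19.5%, 25.6% and 13.8% of tested probes were called higher. Without control replicate 11, 5 of the 6 were called (all but miR-466b-5p), beside 14.1% of tested probes called higher. Without control replicate 9, 2 of the 6 were called (miR-466c-5p and miR-466d), with 4 past the unadjusted threshold, beside 10.5% of tested probes. Without DSS replicate 16, limma called 0 of the 6 and 0 of all 268 probes tested, with 6 and 124 past the unadjusted threshold, so that this loss is not particular to the family.

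**Figure D3:**
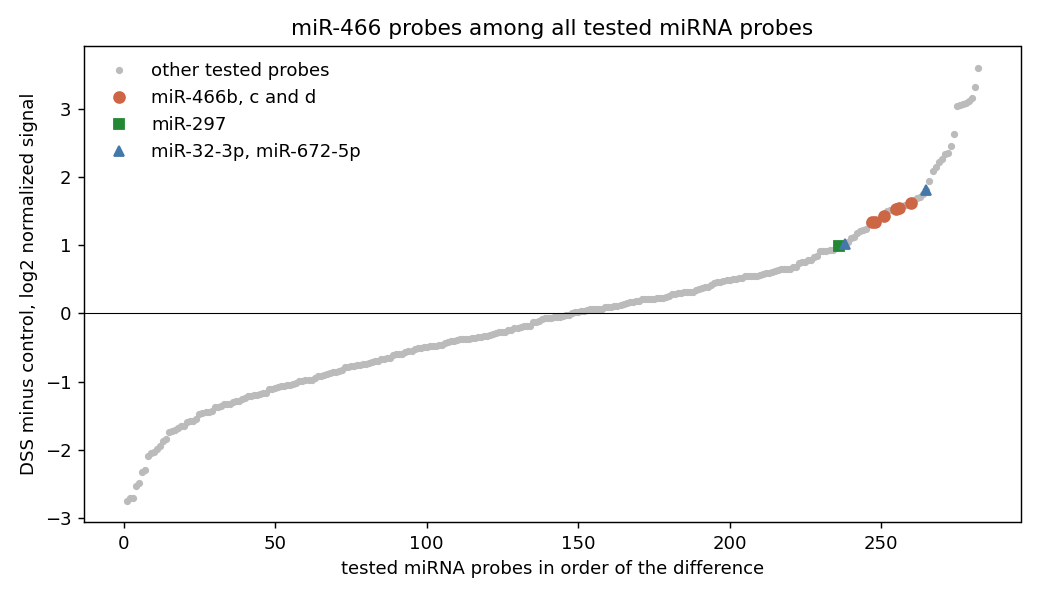
Difference between DSS and control hearts (log2 normalized signal) of the 282 tested miRNA probes, in ascending order. The 6 miR-466 probes (orange circles) lie between 1.35 and 1.61, miR-297 (green square) at 0.99, and miR-672-5p and miR-32-3p (blue triangles) at 1.01 and 1.81.

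The size of the difference depended on the scaling between arrays more than on the member. Averaged over the family, the signal was 9.93 ± 0.23 in control and 11.40 ± 0.61 in DSS hearts (SD, n = 3 each), a difference of 1.47 on the log2 scale. It was 1.40 without normalization and 1.40 in the authors' processed values. Scaling by the spike-in probes gave 2.18, and scaling to the 75th percentile of all probes gave 1.03. The scaling also moved the median of all tested probes, to 0.36 without normalization and to 1.14 with spike-in scaling. Relative to that median the family lay 1.53 higher after LOWESS, 1.46 higher in the authors' values and 1.04 higher without normalization or under any scaling by 1 factor per array. Every member was higher in DSS hearts under every alternative tried. The 3p arms differed by 1.56 between the groups and the 5p arms by 1.37, after LOWESS. This order of the arms was not stable. Without normalization the 3p arms differed by 1.29 and the 5p arms by 1.51, and quantile normalization, plain background subtraction and leaving out control replicate 9 or 10 likewise put the 5p arms first. With LOWESS, without normalization and in the authors' values, the gap between the arm means of an array overlapped between the groups. Without control replicate 9 the difference of the 3p arms was 0.99.

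**Figure D4:**
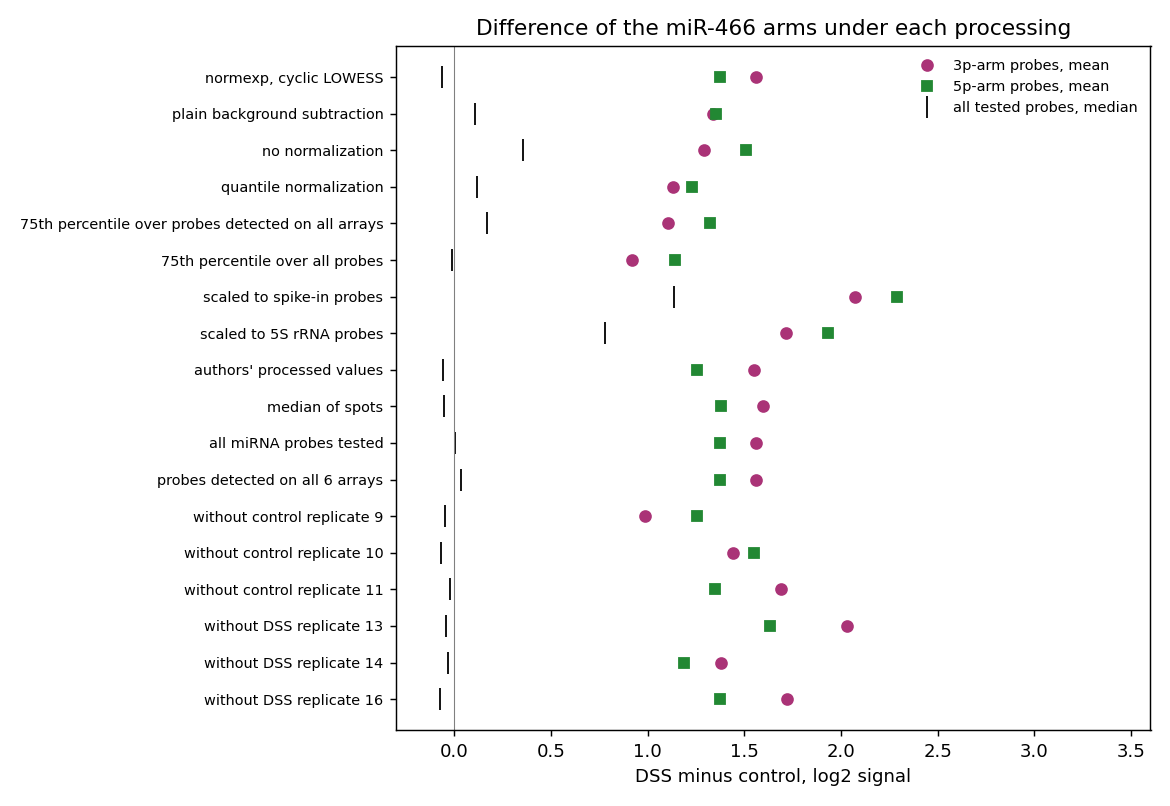
Mean difference between DSS and control hearts (log2 signal) of the 3 3p-arm probes (purple circles) and the 3 5p-arm probes (green squares) under each processing, with the median of all tested probes as a black tick. Both arms lie to the right of the tick in every row, and the arms change order between LOWESS (1.56 and 1.37) and no normalization (1.29 and 1.51).

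Of miR-297, miR-467 and miR-669, the other groups described for the mouse Sfmbt2 cluster, only miR-297 was found among the probe names. RefSeq places its rat hairpin on chromosome 10 (chr10:98715682-98715747), outside Sfmbt2, and its target is the nearest other target to miR-466c-5p and miR-466b-5p, at an edit distance of 5 and 6.
miR-297: aUGUAUGUgugcauguaugcaug
Its log2 signal was 7.60, 8.06 and 7.53 in control and 8.47, 8.94 and 8.77 in DSS hearts. The groups did not overlap. After LOWESS the difference of 0.99 lay under those of all 6 members, but without normalization it was 1.44, above those of both miR-466b 3p probes, miR-466c-3p and miR-466b-5p (1.26 to 1.32). limma called miR-297 higher in DSS hearts.

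Outside the family, 2 probes on the array have a target with at least 8 bases of an unbroken GU or AC repeat, and both were called higher by limma. They are shown to set the repeat of unrelated miRNAs beside that of the family, with the seed in capitals.
miR-32-3p: gCAAUUUAgugugugugauauu
miR-672-5p: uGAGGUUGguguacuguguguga
For miR-32-3p, the control hearts read 8.81, 9.56 and 9.00 and the DSS hearts 10.47, 11.62 and 10.71, a difference of 1.81. For miR-672-5p, the values were 9.38, 9.24 and 9.33 in control and 9.80, 10.96 and 10.23 in DSS hearts, a difference of 1.01. The groups did not overlap for either probe. Both lay above 0 under all 9 ways of background correction and scaling that were compared.

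A shorter repeat was searched after the values were seen. UGUGUG is in 3 members and in 8 other targets (1.06% of 755), and its reverse complement CACACA is in the other 3 members and in 5 other targets (0.662%). Of the 8 others with UGUGUG, 6 were tested, and limma called 6 of the 6 higher, with a median difference of 1.12, where 20.9% of all tested probes were called higher. Since the motif was chosen with these values known, the count is a description. They are let-7b-5p at 2.63, miR-32-3p at 1.81, miR-206-3p at 1.23, miR-672-5p at 1.01, miR-297 at 0.99 and miR-493-3p at 0.57, the last detected on only 3 arrays. The other let-7 5p probes lack the motif and were also called higher, from let-7g-5p at 1.51 to let-7f-5p at 3.32. The probes miR-32-3p, miR-672-5p and miR-297 were already described above, so this list is not separate from those. Of the 5 with CACACA, 4 were tested, and limma called miR-34c-3p higher, at 1.52, and miR-342-3p lower, at -0.48. The remaining pair, miR-377-3p at 0.55 and miR-672-3p at 0.53, was not called. With miR-342-3p as the exception, each tested probe with UGUGUG or CACACA was above 0 under the 9 ways of processing, and miR-342-3p was above 0 under 2 of them. The 74 other tested probes within the GC range of the family had a median difference of -0.35, with 20 called higher and 29 lower.

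The length of the run that a target shares with a member was computed for all other tested probes. The 206 probes sharing at most 5 bases had a median difference of -0.21, the 48 sharing 6 bases -0.04, the 13 sharing 7 bases 0.15, and the 9 sharing 8 or more 1.00. limma called 31 higher and 62 lower of the 206, 12 and 13 of the 48, 4 and 4 of the 13, and 6 and 1 of the 9. Over all tested probes, 20.9% were called higher and 49.3% in either direction. The last class includes miR-1-3p, the abundant muscle miRNA, at 3.11, miR-568 at 1.57, and the 1 called lower, miR-186-5p at -1.20. It also holds miR-32-3p, miR-672-5p and miR-297, which were described above. The range was wide in every class, from -2.74 to 3.61 for the probes sharing at most 5 bases. Whether the repeat has a part in the signal of the family was not tested.

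The probes outside these lists whose profile over the 6 arrays was most like the family's were found by the root mean square difference from its mean profile, each profile centred on its own mean. They were miR-423-5p (0.13 on the log2 scale), miR-146a-5p (0.14), miR-3574 (0.14), miR-485-3p (0.16) and miR-210-5p (0.18). The members themselves, which are part of that mean, lay between 0.09 (miR-466b-5p) and 0.21 (miR-466c-5p) from it. The 5 probes fell within this range, but they were picked for being closest. The targets of the 5 probes share at most 7 bases in a row with a member. For miR-146a-5p, a miRNA induced by NF-κB signaling, the log2 signal was 9.82, 10.49 and 10.19 in control and 11.07, 12.35 and 11.33 in DSS hearts. As in the family, after LOWESS DSS replicate 14 was the highest array and DSS replicate 13 the lowest of its group for all 5. The probes were picked for a profile like the family's, so this shared order is a description. Without normalization DSS replicate 16 was the lowest of its group for all 5. For miR-146a-5p it read 11.11, where DSS replicates 13 and 14 read 11.74 and 11.83. Their differences ran from 1.24 (miR-3574) to 1.76 (miR-485-3p).

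Marker miRNAs were read beside these values. For the counts of calls below, limma called 20.9% of all tested probes higher and 49.3% in either direction. Of the 6 heart muscle miRNAs, limma called miR-1-3p higher and miR-499-5p lower, and the summed signal of the list was between 15.34 and 15.98 on the log2 scale in control and between 15.25 and 16.53 in DSS hearts. Of 6 leukocyte miRNAs, limma called 2 higher (miR-150-5p at 1.59 and miR-155-5p at 0.65) and 2 lower (miR-223-3p at -1.35 and miR-342-3p at -0.48). Of these, miR-155-5p was dim and detected on only 3 arrays, with a mean of 6.24 in control hearts. The remaining leukocyte probes, miR-142-3p and miR-142-5p, were each detected on 1 array. The summed signal of the list was between 11.49 and 12.44 on the log2 scale in control and between 13.15 and 13.35 in DSS hearts. Most of this sum was miR-150-5p, with a mean of 11.57 in control and 13.15 in DSS hearts, while both miR-142 probes and the called miR-223-3p and miR-342-3p had lower means in DSS hearts. Of 4 erythroid miRNAs, 1 was called higher (miR-486 at 2.36) and 2 lower (miR-451-5p at -2.53 and miR-144-5p at -0.94). The probe for miR-144-5p was detected on 3 arrays and that for miR-144-3p on 0. The sum of the 4 erythroid miRNAs was between 11.59 and 12.64 in control and between 11.98 and 12.51 in DSS hearts. Of 3 brain miRNAs 1 was called lower and of 4 liver and gut miRNAs 2 were called lower, with none higher in either list. The brain sums were 8.43 to 9.06 in control and 7.66 to 8.68 in DSS hearts, and the liver and gut sums 9.76 to 10.17 and 8.78 to 9.29. The part of other cells in the difference of the miR-466 probes was not tested.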

How the data were processed

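Total RNA was tailed, tagged and stained in 1 color (Cy5) on a rat miRNA array. The authors deposited scanner files with the intensity of each spot (pixel median and SD, linear, background included, not normalized) and 1 table of processed intensity for 810 probes, made by background subtraction and a LOWESS filter, with the rule for combining spots not given in the sources used here. Groups follow the labels. From the scanner files, background was corrected with normexp (offset 50), the log2 values of 4 spots were averaged, and cyclic LOWESS (span 0.7, 3 iterations) normalized the arrays, with R 4.3.3 and limma 3.58.1. For log2 of the authors' values 1 was added. A spot passed if it exceeded the background (the median of the miRNA spots in the dimmest 25%) by over 3 SD of the empty spots and had a pixel CV under 0.5, and a probe was detected with at least 2 spots. Probes detected on at least 3 arrays were tested with limma, with Benjamini-Hochberg adjustment over all of them and a threshold of 0.05. The processing was also run on simulated data, with as many probes raised as lowered and no shift of the control probes. The present arrays differ from that setting, so nothing about them is drawn from that run. Other background corrections, scalings, probe filters, the authors' values, the methods' t-test and leaving out each array were tried as alternatives. Sequences and positions are from the scanner files and RefSeq (GRCr8), where all 6 members were matched. Figures were drawn with Python 3.11.15 and matplotlib 3.10.9. The members, the lists and the alternatives were chosen with earlier results of these data known. Named are the members, other probes of the Sfmbt2 repeat cluster, probes with a repeat of at least 8 bases, those sharing a seed and the 5 of most similar profile. Probes with UGUGUG or CACACA and those named for a shared run were chosen after their values were seen. Slide and scan are not named in the files used here.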

Additional observations from a re-analysis of the deposited data

How the results depend on the processing

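No paired analysis was possible because control and DSS rats carry different animal numbers. A block for slide or scan was not run because the files used here name neither. Of 102 values of a single member under an alternative, 102 were above 0, and 91 moved by less than the SD between arrays. These counts include the alternatives that change only which probes are tested, where a member's difference cannot move. The members were also chosen as higher in DSS hearts, so the counts are a description. The family mean of 1.47 became 2.18 with spike-in scaling and 1.03 with scaling to the 75th percentile of all probes. It was between 1.12 and 1.83 with 1 array left out. The 3p mean of 1.56 became 0.92 with scaling to the 75th percentile of all probes and was between 0.99 and 2.03 with 1 array left out. The 5p mean of 1.37 became 2.29 with spike-in and 1.93 with 5S rRNA scaling, and was between 1.19 and 1.63 with 1 array left out. limma called 139 of 282 probes and 6 of 6 members. With all 761 probes tested it called 74 and 2, and with 1 array left out between 0 and 140 probes and between 0 and 6 members. Leaving out DSS replicate 16 gave 0 probes (124 past the unadjusted threshold of limma), DSS replicate 14 gave 66, control replicate 9 gave 82 and control replicate 11 gave 90. The methods' t-test gave 155 probes and 6 members unadjusted, but 0 and 0 after Benjamini-Hochberg. The causes were not tested. The member value closest to the detection limit, miR-466c-5p on control replicate 10, stood 3.46 times as far above the background as that limit.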
